A study of Mus musculus with 9 samples.

Results

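The SLAM family receptors are a group of immunoglobulin-like surface proteins of blood cells, and all 9 mouse members (Slamf1, Slamf6, Slamf7, Slamf8, Slamf9, Cd48, Cd84, Ly9 and Cd244) were found by symbol among the 39179 genes of a table of read counts. Bulk RNA sequencing had been run on 3 dendritic cell (DC) subsets of the spleen of unstimulated C57BL/6J mice aged 6-12 weeks, namely CD8+ conventional DC 1 (cDC1), CD8- conventional DC 2 (cDC2) and plasmacytoid DC (pDC). Each subset was represented by 3 libraries, each from cells pooled from 15-17 mice, so that a library averages over animals. The cells were sorted by surface proteins, CD11c, CD45RA, CD8, CD11b and CD49b among them, after T cells, B cells, granulocytes and red cells had been depleted. No SLAM receptor is named among those proteins. Libraries with the same replicate number carry the same date code in all subsets.

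Most SLAM receptors are their own ligand, so that a receptor on one cell binds the same receptor on another. Among the exceptions are CD48, which has a lipid anchor instead of a cytoplasmic tail, and its binding partners CD244 and CD2. The tails of SLAMF1, SLAMF6, SLAMF7, CD84, LY9 and CD244 carry tyrosine-based switch motifs that bind the small adaptors SAP and EAT-2 or, in their place, phosphatases, so that the same receptor can activate or inhibit a cell. SLAMF8 and SLAMF9 have short tails without these motifs. The family is best known from T cells, natural killer (NK) cells and B cells, in which defects of SAP cause an immunodeficiency, and less is known of its work in DC.

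The libraries held 15806597 to 32453789 counted reads, and 13819 genes were tested. Levels are given as CPM, a gene's reads relative to the reads of its library on one common scale, after adjustment by the trimmed mean of M values (TMM), and differences as log2 fold changes from edgeR's quasi-likelihood test with p-values adjusted over all tested genes and a threshold of 0.05. The summed CPM of 7 cDC1 markers was 3902-4328 in cDC1 against 573-700 in pDC and 214-279 in cDC2, and that of 7 pDC markers was 11583-12745 in pDC against at most 225 elsewhere. That of 7 cDC2 markers was 2301-2473 in cDC2 against 105-179 in cDC1 and 1841-2010 in pDC. Most of the pDC sum came from Cd4, at 1369 CPM on average in pDC and 399 in cDC2, and Sirpa, at 520 and 965. Itgam, Clec4a4, Esam, Dtx1 and Clec4a2 were at 70.8-472 CPM on average in cDC2 and 1.25-11.3 CPM in pDC. The sum, but not these last markers, thus separated cDC2 from pDC poorly. The lists include Cd8a (1434 CPM on average in cDC1), Itgam (CD11b, 235 in cDC2) and Bst2 (CD317, 2325 in pDC). The study defines its subsets by these proteins, so these genes are no independent check of the sort. All listed markers of the 3 subsets were above 3 reads in every library. In such bulk samples, fewer cells that express a gene and less RNA per cell cannot be told apart.

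All 9 members passed the filter on low counts, Slamf1 with at most 19 reads in a library. In pDC against cDC1, 4 members were higher and 3 were lower, where 24.3% of all tested genes were called higher and 24.4% lower. In pDC against cDC2, 3 members were higher and 4 were lower, 3 of the latter besides Slamf1, beside 22.5% and 23.3% of all genes. In cDC2 against cDC1, 5 members were higher and 1 was lower, beside 12.7% and 11.7%, and without cDC2 replicate 1 that comparison called 3 of the 8 members then tested in place of 6. A test for any difference among the 3 subsets called 8 of the 9 members, Slamf1 included and with Cd48 the exception, against 56% of all genes. The median absolute log2 fold change over the members was 2.51, 1.60 and 1.07 in the 3 comparisons, in that order, and 0.63, 0.59 and 0.36 over all tested genes. The member medians include Slamf1, whose log2 fold changes of -2.71, -4.27 and 1.57 rest on few reads. The comparisons share subsets, so their counts are not independent of each other.

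Slamf9 and Slamf8, the members without switch motifs, form the second of the family's 2 clusters on chromosome 1 and had the members' largest differences in pDC against cDC1, in opposite directions. The bases before their transcription starts are shown because these 2 genes carry the strongest contrast between pDC and cDC1. The sequences are those of RefSeq on GRCm38.p6, read 5′ to 3′ on each gene's strand, with the last base just before the start. Capitals mark matches to the motifs listed below. The Slamf9 stretch is chr1:172475110-172475359 on the plus strand, and that of Slamf8 is chr1:172590569-172590818 on the minus strand.
Slamf9: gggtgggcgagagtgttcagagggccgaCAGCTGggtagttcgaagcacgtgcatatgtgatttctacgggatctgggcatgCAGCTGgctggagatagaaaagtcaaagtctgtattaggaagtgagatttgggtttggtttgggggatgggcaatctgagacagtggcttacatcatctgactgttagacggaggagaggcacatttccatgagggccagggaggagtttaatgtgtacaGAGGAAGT
Slamf8: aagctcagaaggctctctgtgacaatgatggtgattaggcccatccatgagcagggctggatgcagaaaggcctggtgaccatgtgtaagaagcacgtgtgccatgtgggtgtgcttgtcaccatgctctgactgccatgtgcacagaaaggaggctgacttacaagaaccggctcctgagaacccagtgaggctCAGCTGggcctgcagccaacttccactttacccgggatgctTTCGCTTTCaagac

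The letters searched on both strands were GAGGAAGT for PU.1, GGAANNGAA for a composite of ETS and IRF sites, GAAANNGAA for the interferon-stimulated response element, CAGGTG and CAGCTG for E boxes, and TGTGGT for Runx factors. The window ran from 250 bases before to 50 bases after the start. The Slamf9 window held GAGGAAGT with its first base 8 bases before the start, letters present in 3.11% of 32544 promoters of the same length, and CAGCTG at 222 and 168 bases before it, present in 16.4%. The Slamf8 window held GAAANNGAA on the opposite strand at 14 bases before the start, present in 8.53% of promoters, and 1 CAGCTG at 55 bases before it. A PU.1 match was therefore found in 1 of the 8 member promoters in the reference, an interferon-element match in 2 (Slamf8 and Cd84), CAGCTG in 4 (Slamf1, Slamf7, Slamf8 and Slamf9), CAGGTG in 1 (Slamf1, 20.3% of promoters), TGTGGT in 2 (Cd48 and Cd84, 16.7%) and the composite in none (8.22%). The Slamf6 and Cd244 windows held none of these letters. A match is a run of letters and says nothing of binding.

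Slamf9 was close to a pDC gene in these data. Its product is a receptor with no established ligand. It was measured at 249, 233 and 264 CPM in pDC replicates 1, 2 and 3. The cDC1 libraries had 2.73, 1.38 and 3.05 CPM and the cDC2 libraries 6.92, 5.88 and 3.67 CPM. Every pDC library lay far above every conventional DC library, and the cDC2 libraries lay above the cDC1 libraries with no overlap. The log2 fold change was 6.72 (SE 0.326, adjusted p = 2.20e-07) in pDC against cDC1, which is 106-fold, and 1.72% of tested genes had a larger absolute change. Against cDC2 it was 5.48 (SE 0.301, adjusted p = 4.89e-07), or 44.8-fold. Between the conventional subsets Slamf9 was higher in cDC2, with a log2 fold change of 1.24 (SE 0.293, adjusted p = 0.0120). That small difference rested in part on 1 library, since without cDC2 replicate 1 it was 1.03 with an adjusted p of 0.0535.

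Slamf8 showed the opposite order. The protein is induced by interferon-gamma in macrophages and is known to restrain their reactive oxygen production. Its levels were 406, 377 and 448 CPM in the cDC1 libraries. They were 194, 176 and 218 CPM in cDC2, and 16.0, 7.50 and 21.3 CPM in pDC. The 3 subsets did not overlap, with cDC1 highest and pDC lowest. The log2 fold change in pDC was -4.78 against cDC1 (SE 0.332, adjusted p = 2.07e-06), 27.5-fold lower, and -3.72 against cDC2 (SE 0.317, adjusted p = 8.94e-06), 13.1-fold lower. In cDC2 against cDC1 Slamf8 was lower by a log2 fold change of -1.07 (SE 0.284, adjusted p = 0.0215). Leaving out cDC1 replicate 1 or 3, or cDC2 replicate 1 or 2, moved that adjusted p to between 0.0545 and 0.0711, with the log2 fold change between -1.08 and -1.01. With replicate number in the model the adjusted p was 0.00195.

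The low pDC level of Slamf8 was uneven between libraries, and most of the listed monocyte and macrophage markers, though not all, had the same order. C1qa, a complement gene of splenic macrophages, was at 16.8, 4.05 and 25.0 CPM in pDC replicates 1, 2 and 3, and the macrophage adhesion molecule Vcam1 was at 44.9, 8.06 and 48.1 CPM. Adgre1, C1qb, C1qc, Spic and Ly6c2 were likewise lowest in pDC replicate 2 and highest in replicate 3. The scavenger receptor genes Cd163, at 7.05, 4.05 and 2.24 CPM, and Marco, at 10.4, 1.37 and 2.71 CPM, and the Fc receptor gene Fcgr1, at 1.85, 0.659 and 1.47 CPM, were not in that order. The order of Slamf8 was not particular to pDC or to these markers, since Slamf8 had it in cDC1 and cDC2 as well. In pDC the marker sums of NK cells (21.5, 12.7 and 53.3 CPM) and neutrophils (48.2, 6.13 and 61.4 CPM) had it. So had those of B cells and of erythroid cells and platelets, but not those of T cells or plasma cells. Over the 10 listed monocyte and macrophage markers, all were above 3 reads in every pDC library. Their sum was 1988-2869 CPM in pDC, of which Ly6c2 alone made 1955-2715, against 107-181 CPM in cDC1 and 468-670 CPM in cDC2. C1qa was at 28.0-61.1 CPM in cDC2 and at 3.79-13.8 CPM in cDC1. The part of such cells in the Slamf8 reads was not tested in pDC or in any other subset.

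**Figure D1:**
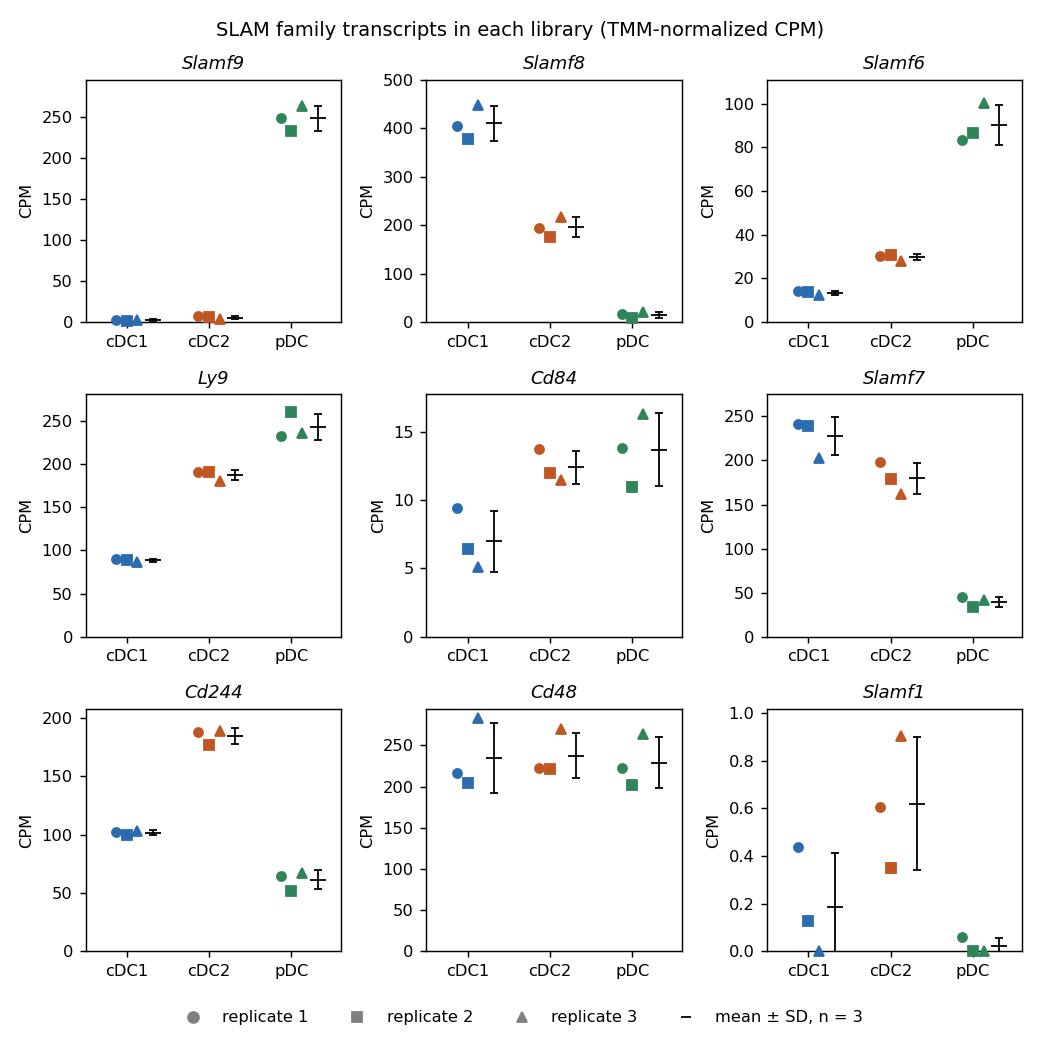
Levels of the 9 SLAM family genes in each library, in TMM-normalized CPM on linear axes from 0, where symbols mark the replicate number and bars the mean ± SD of 3 libraries, not drawn below 0. Slamf9 reaches 233-264 CPM in pDC and at most 6.92 in the other subsets, whereas Slamf8 runs from 377-448 CPM in cDC1 to 7.50-21.3 in pDC and Cd48 spans 202-283 CPM with all 3 subsets overlapping.

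Slamf6, Ly9 and Cd84 shared an order in which cDC1 was lowest. SLAMF6 (Ly108) is a self-binding receptor that shapes the contact of T cells with B cells. It was at 14.3, 13.7 and 12.3 CPM in cDC1, at 30.3, 30.5 and 28.2 CPM in cDC2, and at 83.5, 86.7 and 100.4 CPM in pDC. None of the subsets overlapped. Slamf6 was 6.70-fold higher in pDC than in cDC1 (log2 fold change 2.74, SE 0.122, adjusted p = 1.37e-07) and 3.04-fold higher than in cDC2 (1.60, SE 0.116, adjusted p = 2.85e-06). It was 2.20-fold higher in cDC2 than in cDC1 (1.14, SE 0.117, adjusted p = 9.04e-05).

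Ly9 encodes CD229, a self-binding receptor with the longest extracellular part of the family. Its level was 90.6, 88.6 and 86.7 CPM in cDC1, within an SD of 1.94. It was at 191, 191 and 181 CPM in cDC2 and at 233, 260 and 236 CPM in pDC. The subsets were again separate, but the step from cDC2 to pDC was small. The log2 fold change was 1.45 (SE 0.0887, adjusted p = 9.55e-07) in pDC against cDC1 and 1.08 (SE 0.0879, adjusted p = 2.40e-05) in cDC2 against cDC1. Between pDC and cDC2 it was 0.37 (SE 0.0868, adjusted p = 0.00572), or 1.30-fold.

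Cd84, a self-binding receptor also found on platelets and B cells, was low in all subsets. It was at 9.43, 6.42 and 5.08 CPM in cDC1, 13.8, 11.97 and 11.5 CPM in cDC2, and 13.8, 11.0 and 16.3 CPM in pDC. The cDC1 libraries lay below all others, whereas cDC2 and pDC overlapped. It was higher in pDC than in cDC1 (log2 fold change 0.96, SE 0.251, adjusted p = 0.00981). In cDC2 against cDC1 it was 0.82 (SE 0.2499, adjusted p = 0.0382), and pDC and cDC2 differed by 0.14, with a 95% interval of -0.41 to 0.69. The call in cDC2 against cDC1 was lost when any of 6 single libraries was left out (cDC1 replicate 2 or 3, any of the 3 cDC2 libraries or pDC replicate 1), with adjusted p from 0.0591 to 0.128. Over 9 erythroid and platelet markers, summed CPM was 46.2-60.7 (cDC1), 48.6-64.6 (cDC2) and 37.2-68.9 (pDC), most of it from haemoglobin genes such as Hbb-bs. Among platelet genes, mean CPM was 2.102 for Itga2b, 0.111 for Pf4 and 0.106 for Ppbp in cDC1. These genes were at 0.601, 0.325 and 0.0967 CPM in cDC2, and at 0.829, 0.0605 and 0.0101 CPM in pDC. Whether platelets added to the Cd84 reads was not tested.

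Since Slamf6 and Ly9 are abundant on lymphocytes, markers of these cells are given beside them. Cd3e, a defining T cell gene, was at 0-0.943 CPM over all libraries. In the pDC libraries the sum of 8 T cell markers was 6.84-10.4 CPM, of which Lat made 5.22-8.19 CPM. It was 3.57-12.8 CPM in the libraries of cDC2 and 1.82-4.74 CPM in those of cDC1. The sum of 8 B cell markers was 233-343, 29.3-34.4 and 39.4-50.04 CPM in the same order, of which Fcrla made 217-335 CPM in pDC. Over 7 plasma cell markers, which include the transcription factor genes Irf4 and Xbp1, the sums were 653-933, 169-183 and 133-162 CPM. The part of lymphocytes in the Slamf6 and Ly9 differences was not tested.

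Slamf7 was a gene of the conventional DC. Its product (CRACC or CS1) is a self-binding receptor that works through EAT-2 in NK cells and is also known from macrophages and plasma cells. The cDC1 libraries had 241, 239 and 202 CPM, the cDC2 libraries 198, 178 and 162 CPM, and the pDC libraries 44.6, 33.5 and 41.4 CPM. The pDC libraries were clearly separate from the rest, and the lowest cDC1 library was just above the highest cDC2 library. Slamf7 was 5.71-fold lower in pDC than in cDC1 (log2 fold change -2.51, SE 0.142, adjusted p = 5.92e-07) and 4.50-fold lower than in cDC2 (-2.17, SE 0.140, adjusted p = 1.35e-06). The difference between cDC2 and cDC1, -0.34 (SE 0.134), did not pass the threshold (adjusted p = 0.0981). With replicate number as a block it did, at -0.34 with an adjusted p of 0.0241. Within each replicate number cDC2 was below cDC1, by 0.28, 0.42 and 0.32 on the scale of log2(CPM + 1). The part of plasma cells in the Slamf7 levels was not tested.

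Cd244 was highest in cDC2. CD244 (2B4) is the CD48 receptor best known from NK cells and CD8 T cells. It was at 103, 99.2 and 103 CPM in cDC1, at 187, 177 and 189 CPM in cDC2, and at 64.4, 51.9 and 67.2 CPM in pDC. All 3 subsets were separate. Cd244 was 3.01-fold lower in pDC than in cDC2 (log2 fold change -1.59, SE 0.114, adjusted p = 2.68e-06) and 1.66-fold lower than in cDC1 (-0.73, SE 0.112, adjusted p = 0.000427). It was 1.81-fold higher in cDC2 than in cDC1 (0.86, SE 0.112, adjusted p = 0.000389). The sum of 8 NK cell markers was highest in cDC2 on average, but unlike for Cd244 the subsets overlapped. It was 25.0, 42.1 and 102 CPM in cDC2 replicates 1, 2 and 3, against 10.4-34.3 in cDC1 and 12.7-53.3 in pDC. The part of NK cells in the Cd244 level was not tested.

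Cd48, the ligand of CD244 and of mouse CD2, was the member that did not pass the test in any comparison. The cDC1 libraries had 216, 205 and 283 CPM, the cDC2 libraries 222, 221 and 269 CPM, and the pDC libraries 222, 202 and 263 CPM. The subsets overlapped throughout, and the replicates of one subset spread more than the subset means. The 95% interval of the log2 fold change was -0.38 to 0.31 in pDC against cDC1, -0.40 to 0.30 in pDC against cDC2, and -0.33 to 0.36 in cDC2 against cDC1. With replicate number as a block the intervals were narrower, -0.17 to 0.11, -0.20 to 0.088 and -0.12 to 0.17 in the same order.

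The spread of Cd48 followed the replicate number. Replicate 3 of each subset was the highest, at 263-283 CPM against 202-222 in the other 6 libraries. In a fit with subset and replicate number, Cd48 was higher in replicate 3 than in the mean of replicates 1 and 2, by a log2 fold change of 0.34 (SE 0.0533, adjusted p = 0.00285). It was the 1 member of 9 called in that contrast, against 23% of all genes. Slamf8 had a difference of 0.39 (SE 0.165, adjusted p = 0.124), and was called, at 0.26 with an adjusted p of 0.0304, when pDC replicate 2 was left out. The replicate 3 libraries had the fewest reads, 15806597 to 18433065, and within each subset the largest sum of 11 immediate-early genes, at 6256 (cDC1), 6150 (cDC2) and 3997 CPM (pDC) against 1573-3573 in the other libraries. The part of either in the Cd48 difference was not tested.

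Slamf1 was hardly detected. SLAMF1 (CD150) is a self-binding receptor known on T cells, stem cells and activated DC. Its counts were 12, 3 and 0 reads in cDC1, 19, 10 and 17 in cDC2, and 2, 0 and 0 in pDC. All 3 pDC libraries were at or under 3 reads, a floor that corresponded to 0.0908-0.203 CPM over the 9 libraries, while the mean was 0.620 CPM ± 0.277 (SD, n = 3) in cDC2. Set against the mean floor of the pDC libraries, the cDC2 level of Slamf1 was 4.43-fold higher. This ratio describes the counts, and since 3 reads is a chosen floor it is no lower bound on a difference. The fit gave an adjusted p of 0.0194 for pDC against cDC2, and 0.0685 without pDC replicate 2. Slamf1 was no longer among the tested genes without cDC2 replicate 1, with at least 10 counts required in every library, or when pDC and one conventional subset were fitted alone, so its entry into the test rested on libraries in which it was high and the p-value is no support for a difference. In pDC against cDC1 and in cDC2 against cDC1 the adjusted p was 0.121 and 0.313. The Poisson ranges of such counts cover counting error only.

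**Figure D2:**
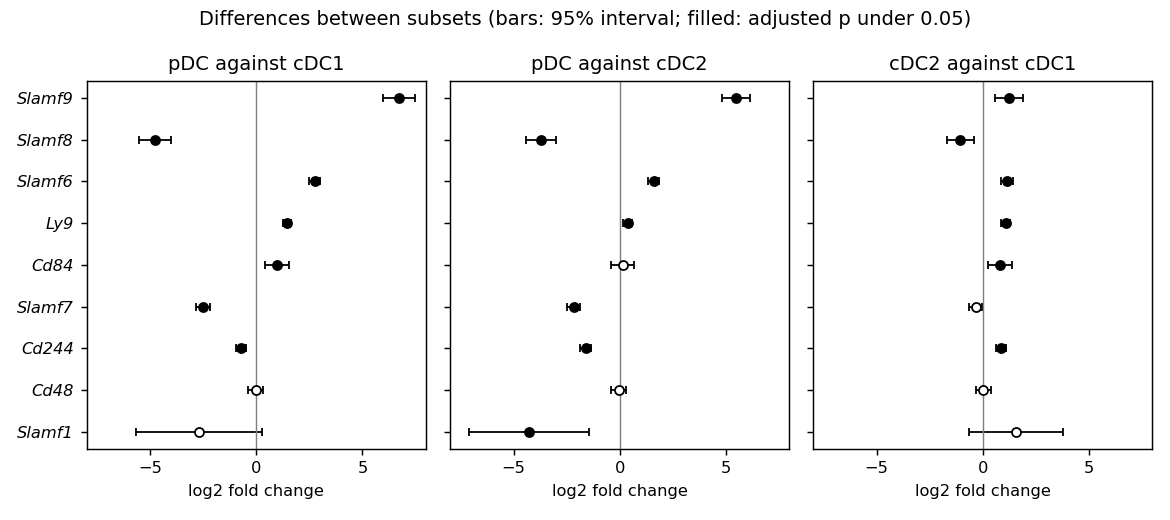
Log2 fold changes of the 9 members in the 3 comparisons from edgeR, on one linear scale, with bars for the 95% interval and filled points where the adjusted p was under 0.05. Slamf9 at 6.72 and Slamf8 at -4.78 stand at opposite ends in pDC against cDC1, and the Cd48 intervals include 0 in all 3 comparisons.

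Levels of different genes can be compared only per length, so CPM was divided by the length in kb of each gene's principal transcript. The summed family level per kb was 562, 531 and 631 CPM per kb in cDC1, 503, 482 and 540 in cDC2, and 546, 517 and 604 in pDC. The 3 subsets overlapped in this sum, whereas with the length of all annotated exons the sum was 456-536 in pDC, above the 385-433 of cDC2, and 397-480 in cDC1. Its make-up differed, as follows from the single genes. Slamf8 made 43.1% ± 0.412 (SD, n = 3) of the sum in cDC1, 23.2% ± 1.12 in cDC2 and 1.59% ± 0.642 in pDC. Slamf9 made 0.312% ± 0.0989, 0.832% ± 0.279 and 34.1% ± 0.736 in the same order. Cd48 took a similar share in each subset, 34.3% ± 3.12, 39.3% ± 2.47 and 34.7% ± 1.93. With the length of all exons the mean shares were 30.9%, 15.6% and 0.965% for Slamf8, 0.414%, 1.04% and 38.5% for Slamf9, and 45.4%, 49.1% and 39.1% for Cd48.

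The ratio of Slamf8 to Slamf9 per kb was 116-217 in the cDC1 libraries, 22.2-46.9 in cDC2 and 0.0255-0.0637 in pDC. The pair thus changed places between the conventional DC and pDC, and no library lay between. With the length of all exons the ratio was 62.7-117, 11.97-25.3 and 0.0137-0.0343. For the ligand Cd48 and its receptor Cd244, the ratio was 10.9-12.4 in pDC, 6.54-8.70 in cDC1 and 3.76-4.53 in cDC2. These ratios also did not overlap, with the receptor nearest to its ligand in cDC2, and were 14.2-16.1, 8.45-11.3 and 4.86-5.86 with the length of all exons.

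By this measure the leading members of cDC1 were Slamf8 at 247 and Cd48 at 198 CPM per kb, of cDC2 Cd48 at 200.3 and Slamf8 at 118, and of pDC Cd48 at 193 and Slamf9 at 189. Slamf1 was last everywhere. With the length of all annotated exons in place of the principal transcript, Cd48 at 197 CPM per kb was above Slamf8 at 133 in cDC1, and Slamf6 was at 8.33 rather than 36.3 in pDC, below Cd244 at 12.5 and Slamf7 at 8.70. The order of genes within a subset therefore depended on the length used, but comparisons of one gene between subsets did not.

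**Figure D3:**
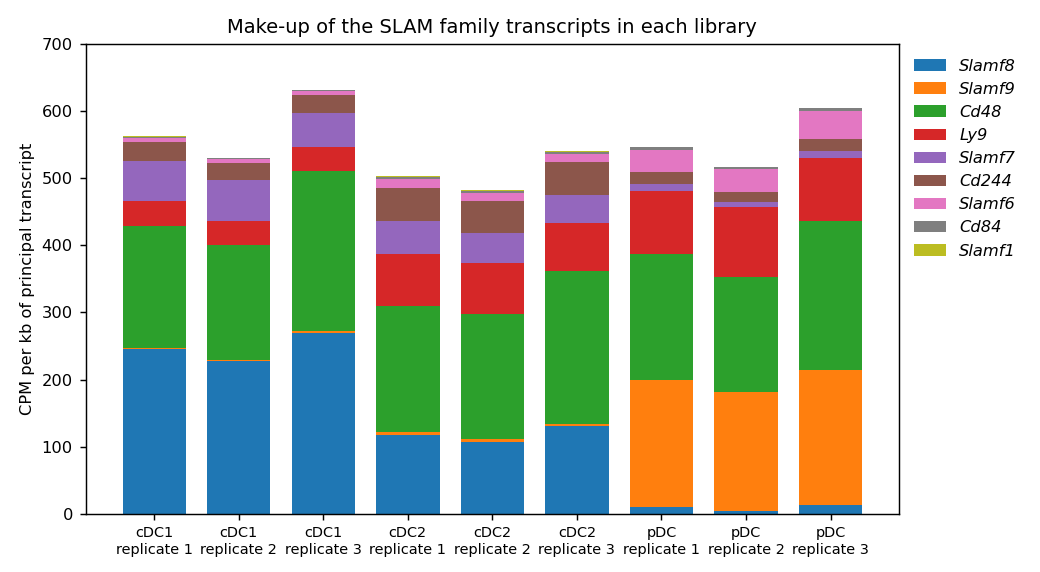
Stacked bars of the 9 members in each of the 9 libraries, in CPM per kb of principal transcript, from 0. The total is 482-631 in every library, and the Slamf8 segment of the conventional DC is replaced by a Slamf9 segment of 33.3-34.7% of the total in the pDC libraries.

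Adaptors and enzymes through which SLAM tails signal were examined in the same fit. Of 21 listed partners, 19 were tested. In pDC against cDC1, 8 were higher and 4 lower, where 48.6% of all genes were called in either direction. In pDC against cDC2 4 were higher and 4 lower, beside 45.8% of all genes, and in cDC2 against cDC1 8 were higher and 2 lower, beside 24.4%. The median absolute log2 fold change of the partners was 0.65, 0.49 and 0.52 in these comparisons, against 0.63, 0.59 and 0.36 over all tested genes.

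Among the adaptors, the one well measured was Sh2d1b1, which encodes EAT-2. It was at 4.33, 3.84 and 3.25 CPM in cDC1, 70.6, 67.0 and 72.1 in cDC2, and 29.3, 30.7 and 29.9 in pDC. The 3 subsets were far apart, with cDC2 highest, as for Cd244, but with cDC1 lowest. The log2 fold change was 4.18 (SE 0.137, adjusted p = 3.85e-07) in cDC2 against cDC1 and 2.96 (SE 0.132, adjusted p = 1.37e-07) in pDC against cDC1. It was -1.22 (SE 0.118, adjusted p = 2.11e-05) in pDC against cDC2. Sh2d1a, which encodes SAP, had 2, 3 and 6 reads in cDC1, 5, 15 and 7 in cDC2 and 6, 1 and 0 in pDC, and was not tested. Sh2d1b2, which encodes the related adaptor ERT, had no read in cDC1, 1, 4 and 20 reads in cDC2 and 1, 0 and 0 in pDC, and was not tested either. NK cells express these adaptors, and the sum of NK markers in cDC2 was lowest in replicate 1, at 25.0 CPM, and highest in replicate 3, at 102 CPM, the order of the Sh2d1b2 reads, whereas Sh2d1b1 was steady. The part of NK cells in these reads was not tested.

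Src family kinases phosphorylate the switch motifs and carry the signal of the adaptors. Fyn, the kinase that SAP recruits, was at 97.9, 97.3 and 99.1 CPM in cDC1, 86.4, 89.2 and 99.4 in cDC2 and 934, 1113 and 833 in pDC. It was higher in pDC by a log2 fold change of 3.29 against cDC1 (SE 0.126, adjusted p = 6.42e-08) and of 3.39 against cDC2 (SE 0.126, adjusted p = 8.85e-08). The pDC libraries lay far above the rest, and the cDC1 and cDC2 libraries overlapped.

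Fgr, a kinase of the same family known from myeloid cells, was low in cDC1, at 131, 96.5 and 135 CPM, and was at 613, 571 and 672 CPM in cDC2 and 704, 708 and 694 in pDC. Its log2 fold change over cDC1 was 2.54 in pDC (SE 0.138, adjusted p = 4.76e-07) and 2.35 in cDC2 (SE 0.137, adjusted p = 3.98e-06). Lck, the kinase of T cells, was at 2.08-2.67 CPM in the cDC1 libraries, 3.54-13.2 CPM in those of cDC2 and 4.99-8.25 CPM in those of pDC. Both other subsets were above cDC1, by 1.90 in cDC2 (SE 0.447, adjusted p = 0.0119) and 1.40 in pDC (SE 0.445, adjusted p = 0.0253). The T cell marker sum of the same libraries was 1.82-12.8 CPM, of which Lat alone made 5.22-8.19 CPM in pDC. In cDC2 replicates 1, 2 and 3 Lck was at 3.54, 10.1 and 13.2 CPM and this sum at 3.57, 10.3 and 12.8 CPM. Both also rose from replicate 1 to 3 in pDC, whereas in cDC1 Lck was highest in replicate 2 and the sum in replicate 3. The part of T cells in the Lck reads was not tested.

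Of the inhibitory partners, Ptpn6, which encodes the phosphatase SHP-1, was at 288, 268 and 223 CPM in cDC1, 769, 798 and 665 in cDC2 and 1009, 1038 and 858 in pDC. It was higher than in cDC1 by 1.90 in pDC (SE 0.129, adjusted p = 1.84e-06) and 1.52 in cDC2 (SE 0.128, adjusted p = 2.79e-05). Dok1, an adaptor that dampens Ras signalling, was lowest in pDC, at 28.6, 33.1 and 20.3 CPM against 56.4-79.7 in all conventional DC libraries. Its log2 fold change in pDC was -1.18 against cDC1 (SE 0.191, adjusted p = 0.000593) and -1.34 against cDC2 (SE 0.191, adjusted p = 0.000297). Cd2, the second receptor of CD48, was at 0.353-3.24 CPM over the 9 libraries and passed the threshold in none of the comparisons.

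**Figure D4:**
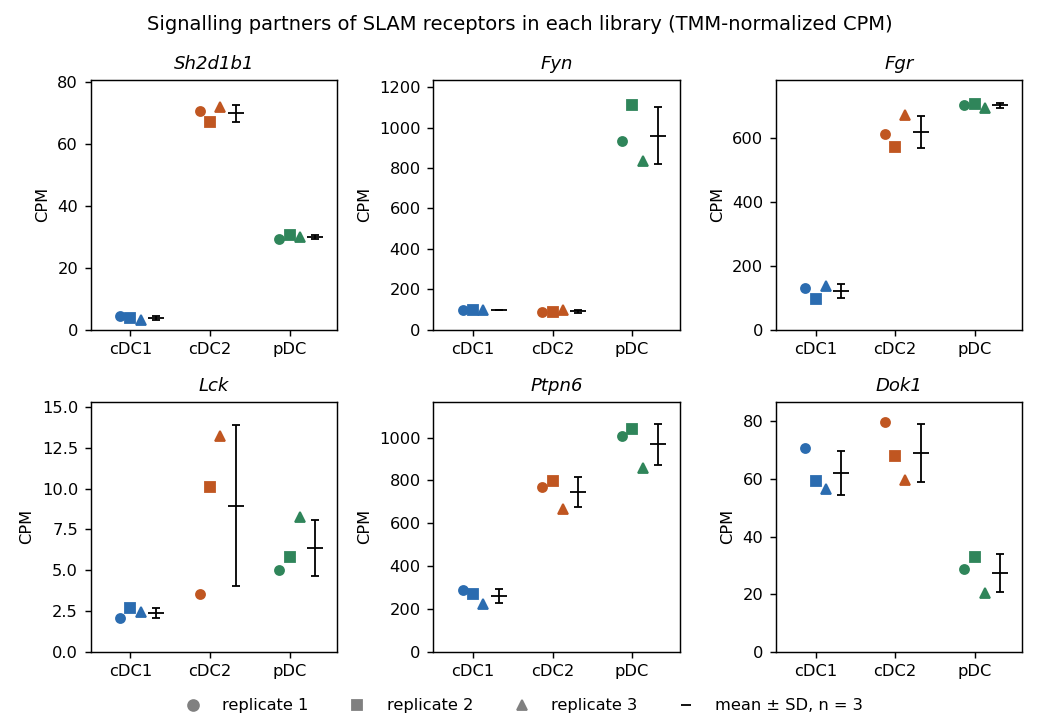
Levels of 6 signalling partners in each library, in TMM-normalized CPM on linear axes from 0, with symbols for the replicate number and bars for the mean ± SD of 3 libraries. Fyn is at 833-1113 CPM in pDC and at most 99.4 in both conventional subsets, Dok1 is at 20.3-33.1 CPM in pDC and 56.4-79.7 in the others, and Sh2d1b1 is at 67.0-72.1 CPM in cDC2 and at most 4.33 in cDC1.

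All 9 members lie on chromosome 1 of mm10, in 2 clusters by the GENCODE M21 annotation. The first holds Cd244, Ly9, Slamf7, Cd48, Slamf1, Cd84 and Slamf6 in that order within chr1:171559193-171953170, a span of 394 kb. After a gap of 522 kb the second holds Slamf9 (chr1:172475358-172478575, plus strand) and Slamf8 (chr1:172581758-172590568, minus strand) within 115 kb. Neighbouring members had opposite directions in some pairs and shared one in others. In pDC against cDC1, Ly9 was higher and Slamf7, the next member, lower, and in the second cluster Slamf9 was higher and Slamf8 lower. Cd84 and Slamf6, also neighbours, were both higher in pDC than in cDC1 and in cDC2 than in cDC1, and Cd244 and Ly9 were both higher in cDC2 than in cDC1.

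The gene bodies of Cd244 and Ly9 run over each other on opposite strands, but their exons do not overlap. Of the exon bases of Slamf7, 9.24% overlap Gm37787 on the opposite strand, a gene model that the table does not list, and since the strand setting of the counting is not given, reads of the pair cannot be told apart. For the other members no annotated exon of another gene overlapped. Of the 6082 stretches of 75 bases in Slamf1 transcripts, 43 also occur in transcripts of other genes on the same strand and 37 on the opposite strand. None of these lies in its principal transcript, and the multi-mapping setting of the counting is not given.

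Between the outermost members of the clusters, the table lists 10 other genes, of which 4 were tested. Tagln2, an actin-binding protein gene between Slamf9 and Slamf8, was at 448, 428 and 619 CPM in cDC1, 338, 304 and 445 in cDC2 and 1295, 1119 and 1420 in pDC. Like Slamf9 it was higher in pDC, by 1.36 against cDC1 (SE 0.184, adjusted p = 0.000193) and 1.82 against cDC2 (SE 0.187, adjusted p = 3.18e-05). The transcript 4933439K11Rik was low, at 2.23-5.42 CPM in the conventional DC and 0.938, 0.862 and 0 CPM in pDC. It was lower in pDC, by -2.78 against cDC1 (SE 0.755, adjusted p = 0.0121) and -2.15 against cDC2 (SE 0.745, adjusted p = 0.0387). Igsf9 and Tma7-ps, the other 2 tested, passed the threshold in none of the comparisons. The 2 neighbours called in pDC against cDC2 became 1 without any single cDC1 or cDC2 library or without pDC replicate 2. Without pDC replicate 3 the number was 4, of the 5 genes then tested.

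**Figure D5:**
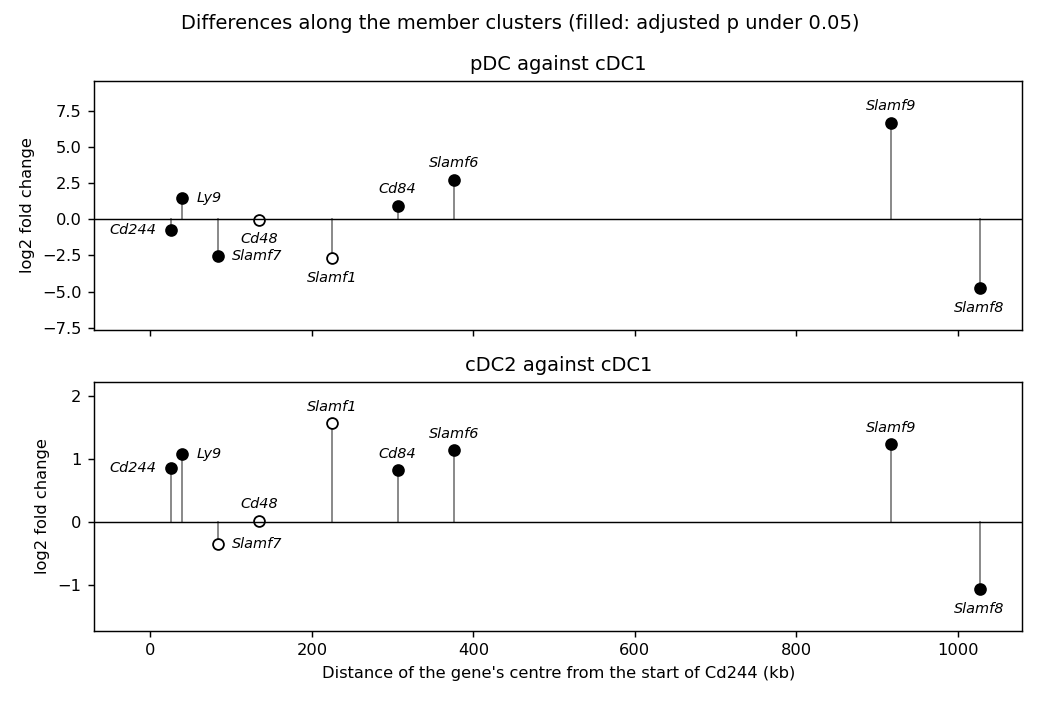
Log2 fold changes of the members against the distance in kb of each gene's centre from the start of Cd244, for pDC against cDC1 above and cDC2 against cDC1 below, each with its own vertical scale, where filled points had an adjusted p under 0.05. The first cluster spans 394 kb and holds members of both directions, and Slamf9 and Slamf8 in the second point in opposite directions in both panels.

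The genes whose levels ran most like each member were found by Pearson's r over the 9 libraries on log2(CPM + 1), among tested genes of at least 5 CPM on average. These r values describe 9 libraries that share their subsets, so that any gene with the same subset order scores high. For Slamf9 the nearest were Peli2 (r = 0.998, with 0.786, 2.01 and 80.4 CPM on average in cDC1, cDC2 and pDC) and Dirc2 (r = 0.997, with 6.50, 14.7 and 405 CPM). For Slamf8 they were Nckap1l, a subunit gene of an actin regulator (r = 0.998, with 997, 848 and 484 CPM), and Plbd1 (r = 0.998, with 3703, 1688 and 193 CPM). Slamf6 ran with Gpr155 (r = 0.999) and Rhoq (r = 0.998), and Slamf7 with Ifngr1, the interferon-gamma receptor chain (r = 0.998, with 749, 520 and 67.5 CPM), and Dapk1 (r = 0.997).

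Cd244 was nearest to Pglyrp1 (r = 0.999, with 12.6, 86.4 and 1.71 CPM) and Ifitm6 (r = 0.998, with 22.7, 159 and 3.50 CPM), both highest in cDC2. Ly9 was nearest to Uvrag (r = 0.995), itself on the list of signalling partners as part of a complex with Beclin-1, and Rmnd5b (r = 0.995). The values were lower for the members that were flat or low, with Sdcbp (r = 0.968) and Ntan1 (r = 0.967) for Cd48, Arl5c (r = 0.956) and Neu1 (r = 0.955) for Cd84, and Agrn (r = 0.9505) and Ipp (r = 0.947) for Slamf1.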

How the data were processed

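Splenic cDC1, cDC2 and pDC were sequenced as 9 libraries (TruSeq Stranded mRNA, 75-base single-end reads). The authors deposited raw read counts per gene, not normalized. The submitters' processing notes name STAR, SAMtools, MultiQC, featureCounts and mm10 without versions; the annotation, strand and multi-mapping settings are not given in the sources used here. Groups came from the labels. The members and gene lists were chosen with earlier results of these data known, and a protein motif search was not run.

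Counts were filtered with filterByExpr (minimum count 10), scaled by TMM and fitted with edgeR 4.0.16 (quasi-likelihood, subset only, all 9 libraries, R 4.3.3), with Benjamini-Hochberg adjustment over 13819 genes. The script was tested on simulated data. SE is the absolute log2 fold change divided by the square root of F. DESeq2 1.42.0 and limma 3.58.1 were alternatives. Named were all members, and partners or neighbours called in at least 2 comparisons with an absolute log2 fold change of 1 or more, besides the adaptors and Cd2. Items that this rule would name but the text leaves out are not reported here. For each member the 2 genes of highest r were named. Libraries of one number share a date code and deviated together (r of deviations 0.266 to 0.543 over 9 pairs). GENCODE M21 matched 37607 (95.99%) of the gene identifiers and gave positions and lengths. Replicates were pools of mice, and no pair of libraries agreed within sampling noise (chi-square per degree of freedom 10.7 to 68.5).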

Additional observations from a re-analysis of the deposited data

How the results depend on the processing

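Of the alternative values for single members, 511 kept their direction and their side of the threshold, 13 lost the call, 2 gained it and 11 changed sign. The sign changes were those of differences near 0. Cd48 in pDC against cDC1 was 0.058 with library size only and -0.14 to 0.083 with single libraries left out. With single libraries left out it was also -0.16 to 0.040 in pDC against cDC2 and -0.11 to 0.15 in cDC2 against cDC1, where upper-quartile scaling gave -0.0059. Cd84 in pDC against cDC2 was -0.050 when the 3 libraries of replicate 3, an alternative chosen after seeing the data, were left out. There the Cd84 call in cDC2 against cDC1 was also lost (adjusted p = 0.0507).

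When single libraries were left out, the members called numbered 7 in pDC against cDC1 and 6-7 in pDC against cDC2. They numbered 3-6 in cDC2 against cDC1 (3 of the 8 members then tested without cDC2 replicate 1) and 6-8 for any difference. For replicate 3 against replicates 1 and 2 it was 1-2, with 2 reached without pDC replicate 2, and 0 when an absolute log2 fold change of 1 was also required. That requirement left 7, 4 and 4 signalling partners in the first 3 of these comparisons. Single libraries left out gave 11-12, 7-9 and 9-11 partners. The replicate block called 7 members in each of the 3 comparisons, gaining Slamf7 in cDC2 against cDC1 (adjusted p = 0.0241), and changed no other member's call. It called 13, 11 and 10 partners.

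Neighbour counts rest on 4 tested genes in the main fit. They rest on 5 without replicate 3 and without any single cDC1 or cDC2 library or pDC replicate 3. The counts were 2, 2 and 0 in the same 3 comparisons and 2-3, 1-4 and 0-1 with single libraries left out. Without replicate 3 they were 4, 4 and 2. In both comparisons of pDC these 4 were 3 higher and 1 lower, against 1 higher and 1 lower with all libraries. Igsf9, not called with all libraries, was at 8.87, 13.7 and 0.589 CPM in pDC replicates 1, 2 and 3. Ccdc19, not tested with all libraries, had 25, 10 and 0 reads there. At least 10 counts in every library left 1 in pDC against cDC1 and 1 in pDC against cDC2, a fit of only the 6 libraries compared gave 1 in pDC against cDC2, and the replicate block gave 1 in cDC2 against cDC1. The causes were not tested. Scaling by library size only moved the median of all genes by 0.11 in cDC2 against cDC1, and the share of higher among all calls from 52.2% to 63.1%. Values per length of all annotated exons were also an alternative chosen after seeing the data.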
